A study of Mus musculus with 12 samples.

Results

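The interaction of chronic stress and krill oil was the difference between 2 differences: the level in stressed mice minus the level in unstressed mice on krill oil, less the same difference on water. It was computed for 21393 of the 55385 genes in the table, those whose FPKM averaged at least 0.1 across the 12 libraries, FPKM being fragments per kilobase of transcript scaled to the mapped fragments of a library. Each library was made from the brain of 1 wild-type C57/BL6J male mouse bought at 8 weeks of age, with 3 mice in each of 4 groups. C_W mice were unstressed and given water, and C_O mice were unstressed and received krill oil for 5 weeks, at 200 mg/kg each day. MS_W and MS_O mice went through 4 weeks of chronic unpredictable mild stress (CUMS) on water or on the same krill oil, and no allele, transgene or other agent separated the groups. The name of a library joins its group and its mouse, as in MS_W95. The interaction, written (MS_O - C_O) - (MS_W - C_W), is on the scale of log2(FPKM + 1): it is negative where the difference with stress was lower on krill oil than on water, and positive where it was higher. This scale understates the change of genes with a low FPKM.

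CUMS exposes mice to a changing series of mild stressors and is used to produce depression-like behavior. The brain answers stress through the hypothalamus, whose neurons release peptides such as corticotropin-releasing hormone and vasopressin, and through steroid hormones that return to the brain and act on gene expression. Krill oil carries long-chain omega-3 fatty acids, largely in phospholipids, and these fatty acids enter neuronal membranes and bind nuclear receptors of the PPAR family. An interaction asks which genes respond to stress in a different way once the oil is given.

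The libraries of 2 mice, C_O72 and MS_W95, were unlike the remaining 10. Pearson's r of log2(FPKM + 1) across genes, which are not independent replicates, was 0.970 for this pair, no more than 0.937 when either was set against another library, and 0.959 or higher for every pair of the remaining 10. Hoxc4, a gene of hindbrain and spinal cord neurons, was at an FPKM of 4.51 in C_O72 and 1.82 in MS_W95 and was listed at 0.0001, the value of a gene without an estimate, in the other 10. These libraries belong to C_O and MS_W, which both enter the contrast with a minus sign, so a gene that is high in both enters it as a negative interaction and a gene that is low in both as a positive one. The pituitary hormone gene Gh was at 47.3 in C_O72 and at most 0.353 in any other library. The part of the tissue taken from each brain in these differences was not tested. Results are therefore given a second time from the 10 libraries without C_O72 and MS_W95. All libraries held neuronal Snap25 (FPKM 242 to 421), astrocytic Gfap (20.2 to 98.1) and oligodendrocytic Mog (20.7 to 114), while the hypothalamic marker Hcrt ranged from 0.0001 to 5.6 and the cerebellar marker Gabra6 from 0.0001 to 91.3. Estimated counts summed to between 50912906 and 75678721 per library, and the lowest C_W library (69768244) was above the highest MS_W library (61608502).

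No gene passed a Benjamini-Hochberg adjusted p of 0.05 for the interaction in the limma fit of the 12 libraries (0% of genes tested, smallest adjusted p = 0.106, Mapt). On the estimated counts, edgeR also called 0 genes and DESeq2 called 159. At an unadjusted p under 0.05, 770 genes had a positive interaction (3.6% of all tested) and 776 a negative one (3.63%). An absolute interaction above 1 in addition left 206 positive genes (0.963%) and 176 negative genes (0.823%), and 16.0% of these had a mean FPKM under 1, compared with 36.3% of all tested genes. The balance of these directions depended on the fit. Positive genes made up 53.9% in the main fit, 41.4% with hindbrain and cortex scores as covariates, 34.2% by edgeR and 36.5% by DESeq2 on the estimated counts, and 30.8% in the 10 libraries. The median interaction over all tested genes was -0.02.

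Among the 1546 genes with an unadjusted p under 0.05, the difference with stress mostly pointed one way on water and the other way on krill oil. It did so in 1369 of them (88.6%), compared with 48.5% of all tested genes, and choosing genes by the difference between diets favours such genes. Of these, 702 were higher with stress on water and lower with stress on krill oil, and 667 were the reverse. A further 125 were higher with stress on both diets and 50 were lower on both, by unequal amounts. The remaining 2 had a difference of exactly 0 on 1 diet. Among the 776 negative genes, 430 passed an unadjusted p of 0.05 between C_W and MS_W but not between C_O and MS_O, and 125 did so only between C_O and MS_O. Among the 770 positive genes, these numbers were 241 and 338, and over all tested genes the shares were 9.41% and 7.79%. The interaction that chose these genes is made of the same differences. In the 10 libraries the share with opposite directions on water and krill oil was lower, 1193 of 1580 genes with an unadjusted p under 0.05 (75.5%).

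**Figure D1:**
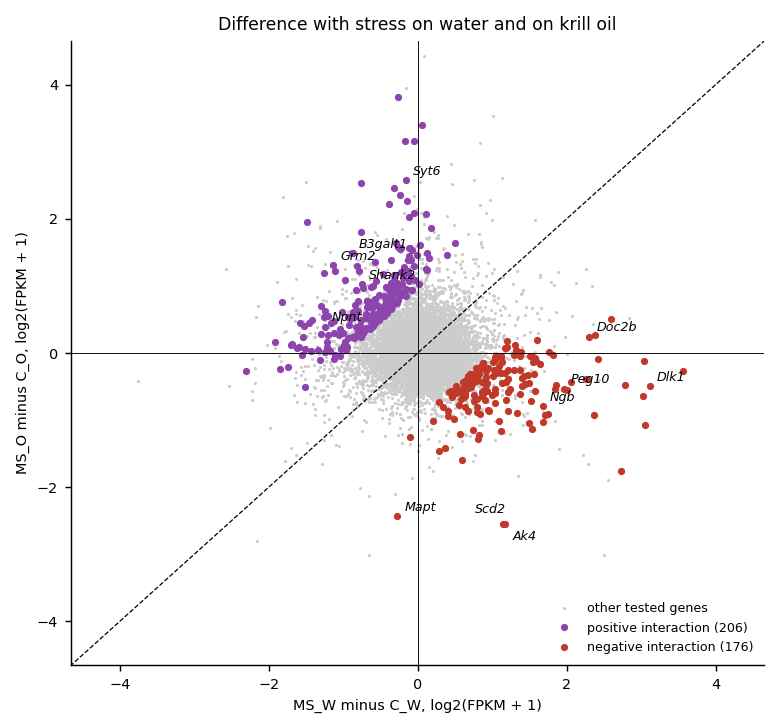
Difference with stress on water (MS_W minus C_W, horizontal axis) and on krill oil (MS_O minus C_O, vertical axis) for each of 21393 genes, as differences of group means of log2(FPKM + 1). Coloured points are the 206 positive and 176 negative genes with an unadjusted p under 0.05 and an absolute interaction above 1, grey points are the other genes, and a gene on the dashed line has no interaction; most coloured points lie in the upper left and lower right quadrants.

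The FPKM of the stressed and unstressed mice did not overlap on both diets, in opposite directions, for 128 genes (0.598% of all tested). For 361 genes (1.69%) they did not overlap on both diets in the same direction. The 3 libraries of a group lay outside the range of the other 9 most often in MS_W, above them for 276 genes (1.29%) and below them for 75 (0.351%). MS_O lay above for 147 genes (0.687%) and below for 92 (0.43%). The unstressed groups lay mainly below the others, C_W for 208 genes (0.972%) and C_O for 206 (0.963%), and above them for 90 (0.421%) and 27 (0.126%). In the 10 libraries MS_W lay above for 1446 genes (6.76%) and below for 543 (2.54%), and C_O for 289 (1.35%) and 853 (3.99%). These groups have 2 mice each there, which makes separation easier. MS_O lay above for 331 (1.55%) and below for 185 (0.865%), and C_W for 183 (0.855%) and 403 (1.88%).

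The leading genes with a negative interaction were mostly at a higher level in MS_W than in the other 3 groups. The 10 named by the smallest unadjusted p among genes with an absolute interaction above 1 and a mean FPKM of at least 1 were Mapt, Doc2b, Ngb, Peg10, Gpr165, Ak4, Dlk1, Pthlh, Gpr101 and Strip2. In 8 of them every MS_W mouse was above every C_W mouse, and in 4 every MS_O mouse was below every C_O mouse, beside 16.3% and 3.29% of all tested genes. The interaction that chose them is made of these differences. None passed the adjusted threshold in 12 libraries (adjusted p from 0.106 to 0.352 by limma), and 4 did so in the 10 libraries.

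Doc2b, a calcium sensor of synaptic vesicle release (ENSMUSG00000020848, chromosome 11, 75768966 to 75796049 on GRCm38), had an FPKM of 3.54, 2.87 and 2.24 in the C_W mice and of 16.4, 17.7 and 19.9 in the MS_W mice. On krill oil it was 3.91, 7.72 and 6.07 in C_O and 7.07, 6.59 and 7.25 in MS_O. The stressed mice on water therefore stood above all other mice, while the stressed and unstressed mice on krill oil overlapped. The interaction was -2.06 (SE 0.28, limma, adjusted p = 0.199), and -1.95 in the 10 libraries.

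Ngb, which encodes the oxygen-binding protein neuroglobin (ENSMUSG00000021032, chromosome 12, 87097531 to 87102539), had an FPKM of 1.63, 1.03 and 2.05 in C_W and of 9.09, 6.06 and 6.53 in MS_W. It was 1.81, 2.57 and 2.89 in C_O and 1.87, 0.543 and 0.697 in MS_O. Stressed mice were higher without overlap on water and overlapped the unstressed mice on krill oil. The interaction was -2.47 (SE 0.36, limma, adjusted p = 0.221) and -2.43 in the 10 libraries.

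Peg10 and Dlk1 are imprinted genes, the former derived from a retrotransposon and the latter encoding a transmembrane protein related to Notch ligands. Peg10 (ENSMUSG00000092035, chromosome 6, 4747306 to 4760517) had an FPKM of 2.38, 1.93 and 2.59 in C_W, 12.4, 13.8 and 9.52 in MS_W, 3.33, 2.73 and 7.20 in C_O, and 3.26, 2.18 and 2.24 in MS_O. The FPKM of Dlk1 (ENSMUSG00000040856, chromosome 12, 109452823 to 109463336) was 0.229, 0.220 and 0.111 in C_W, 9.46, 9.72 and 8.67 in MS_W, 0.253, 0.221 and 4.08 in C_O, and 0.603, 0.588 and 0.0823 in MS_O. For both genes MS_W, including MS_W95, was above all other mice, and the highest mouse outside MS_W was C_O72. The interactions were -2.49 (SE 0.38) for Peg10 and -3.61 (SE 0.63) for Dlk1, with adjusted p of 0.221 and 0.294 by limma. In the 10 libraries they were -2.29 (adjusted p = 0.00898) and -2.98 (adjusted p = 0.0058), and both passed.

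Gpr165 and Gpr101 encode orphan receptors of the G protein-coupled family, and Pthlh encodes a hormone related to parathyroid hormone. For Gpr165 (ENSMUSG00000031210, chromosome X, 96713441 to 96719388) the FPKM was 0.675, 1.01 and 1.06 in C_W, 2.60, 2.18 and 2.07 in MS_W, 1.03, 1.1 and 1.33 in C_O, and 0.595, 0.826 and 0.436 in MS_O. Its stressed mice were thus above the unstressed mice on water and below them on krill oil, with no overlap on either diet (interaction -1.20, SE 0.18, limma, adjusted p = 0.221). Pthlh showed the same order, at 0.798 to 1.07 in C_W, 1.72 to 1.96 in MS_W, 1.5 to 2.57 in C_O and 1.04 to 1.17 in MS_O (interaction -1.01, SE 0.19, adjusted p = 0.345). Gpr101 was at 0.102 to 0.245 in C_W and 2.09 to 3.97 in MS_W, but 0.0522 to 1.17 in C_O and 0.402 to 0.610 in MS_O. Its interaction was -1.84 in 12 libraries and -1.80 in 10, where it passed (limma, adjusted p = 0.0412). Strip2, a component of a phosphatase and kinase complex, was at 2.77 to 3.55 in C_W, 9.28 to 11.0 in MS_W, 4.94 to 7.38 in C_O and 4.84 to 8.61 in MS_O, an interaction of -1.42.

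**Figure D2:**
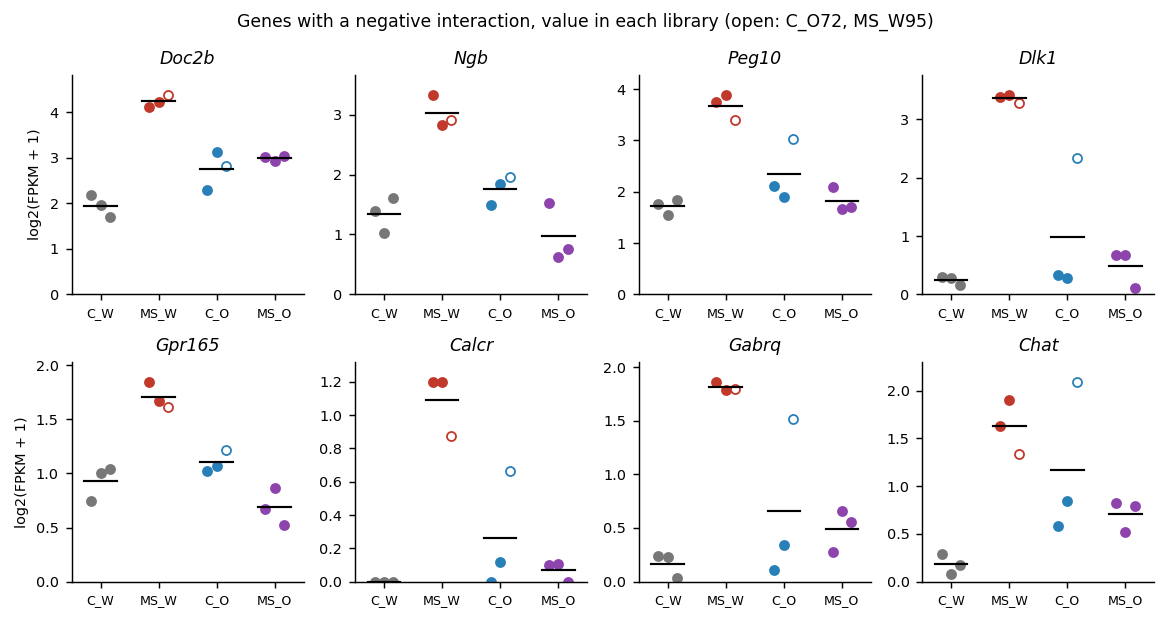
Value of log2(FPKM + 1) in each library for 8 genes with a negative interaction, by group, with a bar at the group mean of 3 mice and open symbols for C_O72 and MS_W95. MS_W is the highest group mean in each panel. For every gene but Doc2b the C_O mouse nearest to the MS_W mice is C_O72, which is above them for Chat.

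Mapt and Ak4 had another pattern, with the main difference on krill oil. Mapt, which encodes the microtubule-associated protein tau (ENSMUSG00000018411, chromosome 11, 104231390 to 104332090), had an FPKM of 64.2, 96.7 and 60.3 in C_W, 62.5, 52.4 and 64.4 in MS_W and 71.9, 66.9 and 54.0 in C_O, and of 10.4, 11.8 and 10.9 in MS_O. Only the MS_O mice were low, and the gap of 2.06 between them and the other 9 libraries compared with a next largest gap of 0.42 on the log2 scale. The interaction was -2.16 (SE 0.25, limma, adjusted p = 0.106), the smallest p of all genes, and -2.22 in the 10 libraries (adjusted p = 0.0211). The table lists 12 transcripts for this gene, and values per transcript were not analysed here. Ak4, a mitochondrial adenylate kinase (ENSMUSG00000028527, chromosome 4, 101419277 to 101466995), was at 1.33 to 2.02 in C_W, 9.30 to 12.2 in C_O and 0.649 to 1.57 in MS_O, while the MS_W mice differed widely at 1.53, 6.68 and 10.2. The interaction was -3.72 (SE 0.61, limma, adjusted p = 0.248) and -3.18 in the 10 libraries.

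The 10 leading genes with a positive interaction were B3galt1, Shank2, Syt6, Npnt, Pparg, Zmat4, Stac2, Grm2, Gpr19 and Npcd. In 7 of them every MS_W mouse was below every C_W mouse, and in 6 every MS_O mouse was above every C_O mouse, beside 8.22% and 8.9% of all tested genes, and these too were chosen by the interaction. Their interactions ran from 1.02 to 2.73, with adjusted p from 0.345 to 0.631 by limma, and none passed the adjusted threshold in the 10 libraries.

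Shank2, a scaffold of the postsynaptic density at glutamate synapses (ENSMUSG00000037541, chromosome 7, 144001928 to 144424494), had an FPKM of 14.9, 15.1 and 15.5 in C_W and of 5.25, 10.6 and 11.2 in MS_W. On krill oil it was 7.83, 5.08 and 5.25 in C_O and 12.5, 13.2 and 13.8 in MS_O. Stressed mice were lower on water and higher on krill oil, with no overlap on either diet. The interaction was 1.77 (SE 0.33, limma, adjusted p = 0.345) and 1.87 in the 10 libraries (adjusted p = 0.135).

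Grm2, a presynaptic glutamate receptor (ENSMUSG00000023192, chromosome 9, 106643095 to 106656080), followed the same order. Its FPKM was 15.4, 16.1 and 11.1 in C_W, 8.51, 5.77 and 4.02 in MS_W, 10.8, 8.31 and 2.23 in C_O, and 11.8, 16.4 and 23.1 in MS_O. The lowest mice of MS_W and C_O were MS_W95 and C_O72, and the interaction was 2.44 (SE 0.63, limma, adjusted p = 0.597) in 12 libraries and 1.65 in 10.

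Pparg, a nuclear receptor that binds fatty acids (ENSMUSG00000000440, chromosome 6, 115360951 to 115490399), had an FPKM of 1.76, 1.84 and 1.39 in C_W and of 0.820, 0.643 and 0.719 in MS_W. It was 1.33, 1.00 and 0.229 in C_O and 1.52, 2.53 and 2.13 in MS_O. Every stressed mouse was below the unstressed mice on water and above them on krill oil. The interaction was 1.38 (SE 0.31, limma, adjusted p = 0.455) and 1.1 in the 10 libraries (adjusted p = 0.203).

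Npnt, Zmat4, Stac2 and Gpr19 were lower in MS_W than in C_W without overlap, while their krill oil groups overlapped. Npnt, an extracellular matrix protein (ENSMUSG00000040998, chromosome 3, 132881745 to 132950291), was at 6.42 to 7.73 in C_W, 2.09 to 2.74 in MS_W, 1.40 to 3.24 in C_O and 2.75 to 5.28 in MS_O (interaction 1.64, SE 0.34). Stac2, which interacts with calcium channels, was at 58.2 to 62.2 in C_W, 18.6 to 28.0 in MS_W, 26.6 to 63.8 in C_O and 47.6 to 49.4 in MS_O (interaction 1.58, SE 0.36). For the zinc finger gene Zmat4 the interaction was 1.02, with 8.32 to 9.14 in C_W and 3.86 to 6.03 in MS_W. For the orphan receptor gene Gpr19 it was 1.41, with 2.61 to 4.25 in C_W and 0.679 to 2.21 in MS_W.

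Syt6 and Npcd differed with stress mainly on krill oil. Syt6, of the synaptotagmin family of vesicle proteins (ENSMUSG00000027849, chromosome 3, 103575231 to 103645569), had an FPKM of 8.01, 21.9 and 22.4 in MS_O and of 1.06, 2.49 and 2.16 in C_O. In C_W it was 2.72, 3.19 and 2.73, and in MS_W 3.72, 3.35 and 1.04, so that MS_O was above all other mice. The interaction was 2.73 (SE 0.57, limma, adjusted p = 0.402) and 2.43 in the 10 libraries. Npcd was listed at 0.0001 in C_O15 and C_O30 and had an FPKM of 0.638 in C_O72, compared with 1.01 to 2.12 in MS_O, and of 0.658 to 2.34 in C_W and 0.707 to 1.31 in MS_W.

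**Figure D3:**
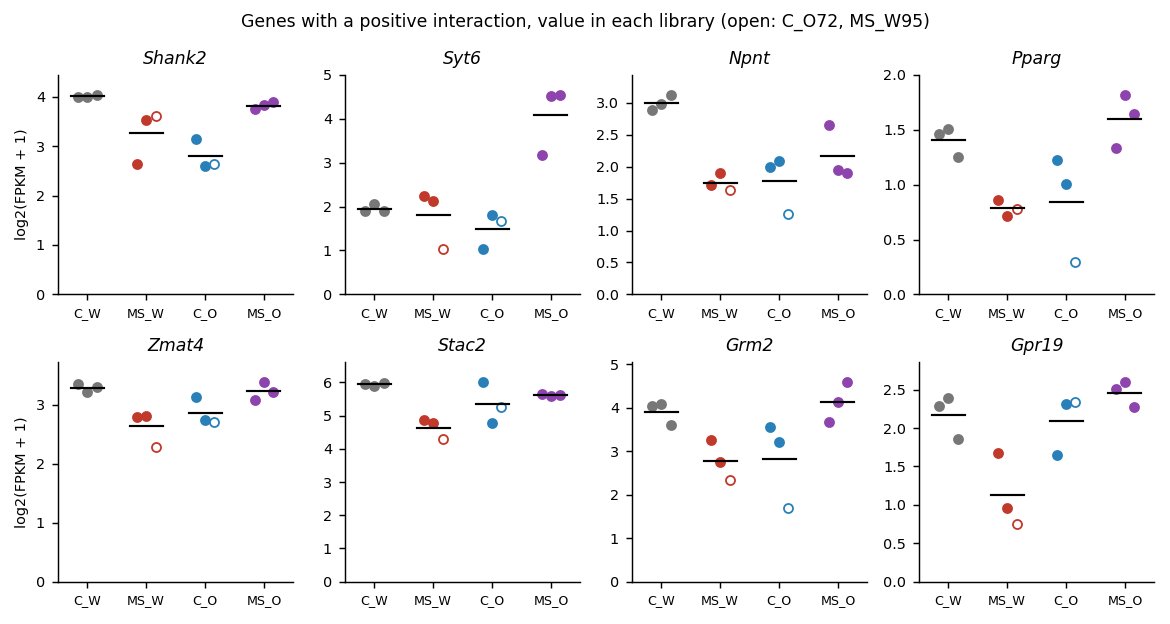
Value of log2(FPKM + 1) in each library for 8 genes with a positive interaction, by group, with a bar at the group mean of 3 mice and open symbols for C_O72 and MS_W95. Shank2, Pparg and Grm2 are lower with stress on water and higher with stress on krill oil without overlap, and Syt6 is above all other mice only in MS_O.

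In the 10 libraries without C_O72 and MS_W95, 31 of 21171 genes passed an adjusted p of 0.05 (0.146%), of which 29 had a negative interaction and 2 a positive one. Of these 31 genes, 24 had an unadjusted p under 0.05 in 12 libraries and 30 had the same sign, but the 10 libraries are part of the 12. In 28 MS_W was higher than C_W at an unadjusted p under 0.05 (9.54% of all genes tested in the 10 libraries), and in 5 the difference between C_O and MS_O had such a p (13.7%), both differences being parts of the interaction that chose the genes. With an absolute interaction above 1 and an unadjusted p under 0.05, the 10 libraries held 82 positive genes (0.387%) and 184 negative genes (0.869%). The C_O and MS_W groups have 2 mice each in this fit, and their spread is shared with the other groups. For some of the 31 genes the left-out MS_W95 was near its group, as for Dlk1 (FPKM 8.67). For others it was not, as for Ucn3, listed at 0.0001 in MS_W95.

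The 5 leading negative genes of this fit were Dlk1, Slc12a5, Peg10, Pde10a and Igsf1. They had the smallest p among genes with an absolute interaction above 1 and a mean FPKM of at least 1, without provisional symbols. The condition on mean FPKM left out genes with a smaller p, such as Calcr, Dgkk, Otp and Magel2. Of the genes left out, Nkx2-1 was at 1.37, 1.59 and 0.0001 in MS_W31, MS_W75 and MS_W95. In the same libraries Dgkk was at 1.75, 1.53 and 2.02. Slc12a5, the neuronal chloride exporter KCC2, had an FPKM of 73.0 in MS_W31 and 73.3 in MS_W75 and of 41.5 in MS_W95. The other 9 libraries lay between 34.2 and 45.6, so MS_W95 was with them and not with its own group. The interaction was -1.12 in the 10 libraries (limma, adjusted p = 0.00774) and -0.74 in 12. Pde10a, a phosphodiesterase of striatal neurons, behaved alike, with 20.3 and 29.0 in MS_W31 and MS_W75 but 1.97 in MS_W95, and with 13.9 and 13.4 in C_O15 and C_O30 but 2.92 in C_O72. Its interaction was -3.38 (adjusted p = 0.0198) in 10 libraries and -1.72 (adjusted p = 0.665) in 12. Igsf1, a membrane glycoprotein, was instead at 3.32, 3.70 and 3.38 in MS_W and at 3.98 in C_O72, and at most 0.603 in the other 8 libraries (interaction -1.77 in 10 libraries, adjusted p = 0.0211).

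The leading positive genes of the same fit, under the same conditions, were Eif4h, Stx17, Zbtb7a, Shank2 and Klhl40. Of these only Eif4h passed the adjusted threshold. The other positive gene past it, Gm10233, has a provisional symbol (interaction 2.64, limma, adjusted p = 0.0211). Eif4h, a translation initiation factor, was at an FPKM of 29.4 in C_O15 and again in C_O30, whereas C_O72 and the libraries of the other groups ranged from 68.6 to 77.3. The interaction was 1.3 in the 10 libraries (SE 0.09, limma, adjusted p = 0.0058) and 0.82 (SE 0.39, adjusted p = 0.665) in 12. Stx17, a syntaxin of autophagosomes, was likewise low in C_O15 and C_O30 (1.72 and 1.15) and at 3.51 to 4.60 in the others. Neither gene had separate stress groups on water. Zbtb7a, a transcription factor, was at 2.18 and 2.22 in MS_W31 and MS_W75 and 14.5 in MS_W95, compared with 7.63 to 14.9 in C_W, 3.35 to 9.23 in C_O and 11.4 to 13.4 in MS_O. Klhl40 was at 3.65 to 4.90 in C_W, 0.126 to 2.68 in MS_W, 0.183 to 3.04 in C_O and 4.17 to 6.49 in MS_O, with its lowest values in MS_W95 and C_O72.

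**Figure D4:**
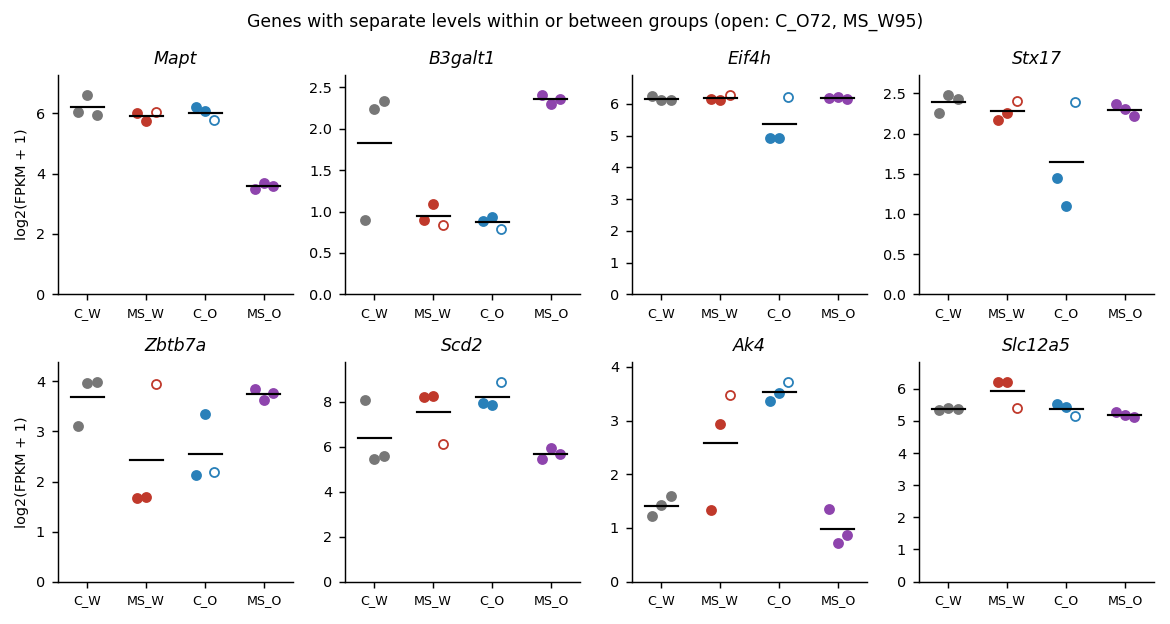
Value of log2(FPKM + 1) in each library for 8 genes whose libraries fall at separate levels, by group, with a bar at the group mean of 3 mice and open symbols for C_O72 and MS_W95. Mapt is low in all of MS_O, Eif4h and Stx17 are low in C_O15 and C_O30, and Slc12a5 is high in MS_W31 and MS_W75.

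Functions were followed through 37 lists of genes written from general knowledge of the brain and of lipid metabolism, and a list is described by its counts and its median, beside 3.6% positive, 3.63% negative and a median of -0.02 for all tested genes. In the 10 libraries 1580 of 21171 genes had an unadjusted p under 0.05. Those with an absolute interaction above 1 in addition were 0.387% of genes for positive and 0.869% for negative interactions. The lists with the most negative genes were those of the hypothalamus, which holds 7 genes known from earlier results of these data, of monoamine and acetylcholine signaling and of neuropeptide receptors. The list with the most positive genes was that of the olfactory bulb and interneurons. In a whole brain, fewer cells of a type and less RNA per cell cannot be told apart.

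Of 24 tested genes of hypothalamic peptides and regulators, 9 had a negative interaction at an unadjusted p under 0.05 and none a positive one, and the median was -0.71. In the 10 libraries 13 were negative and 1 positive, the median was -0.97, and 5 of the 31 genes past the adjusted threshold belonged to this list. Its mean level of log2(FPKM + 1) was 1.18 to 1.33 in C_W, 1.59 to 2.95 in MS_W, 1.14 to 1.75 in C_O and 1.45 to 1.79 in MS_O. MS_W was thus above C_W without overlap, and the groups on krill oil overlapped. The median difference with stress was 0.92 on water and -0.11 on krill oil. MS_W95 had the lowest score of its group, 1.59. The list was written with earlier results of these data known for 7 of its members, Avp, Oxt, Cartpt, Calcr, Dlk1, Arhgap36 and Baiap3, so its counts are not independent of them. Without these 7, 2 of 17 genes were negative and none positive in 12 libraries (median -0.19), and 6 were negative and 1 positive in the 10 libraries (median -0.44), with 2 of the 31 genes past the adjusted threshold. The vasopressin gene Avp reached 32.3 (MS_W31) and 59.3 (MS_W75) but was at 0.185 for the remaining stressed mouse on water, and the other 9 libraries were at an FPKM of at most 7.00. Its high values were thus in 2 of the 3 MS_W mice, and the hypothalamic share of the tissue in each library was not measured.

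Calcr, the calcitonin receptor (ENSMUSG00000023964, chromosome 6, 3685680 to 3764714), was listed at 0.0001 in all 3 C_W mice and had an FPKM of 1.3, 1.29 and 0.836 in MS_W. It was 0.0001, 0.0829 and 0.587 in C_O and 0.0694, 0.0751 and 0.0001 in MS_O, so only MS_W and C_O72 were above 0.1. The interaction was -1.28 (SE 0.22, limma, adjusted p = 0.268) in 12 libraries and -1.19 (adjusted p = 0.0058) in 10. Arhgap36 was at 4.70 to 5.16 in MS_W and at 6.23 in C_O72, but at most 1.01 elsewhere, an interaction of -3.29 in 12 libraries and -2.51 in 10. Baiap3, which acts in dense-core vesicle traffic, was at 13.4 to 20.6 in MS_W, 0.501 to 7.88 in C_O, 0.746 to 1.49 in C_W and 2.09 to 3.17 in MS_O, an interaction of -3.16 (SE 0.71).

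The neuropeptide receptors held 6 negative and 2 positive genes of 30, with a median of -0.13, and 6 and 1 in the 10 libraries. Tacr3, the neurokinin B receptor, had an FPKM of 0.130 to 0.265 in C_W, 1.34 to 2.30 in MS_W, 0.286 to 1.43 in C_O and 0.325 to 0.415 in MS_O. Its highest C_O mouse was C_O72, and the interaction was -1.46 in 12 libraries and -1.18 in 10. Galr1, a galanin receptor, was at 0.0001 to 0.0743 in C_W, 0.228 to 0.560 in MS_W, 0.0949 to 0.399 in C_O and 0.0195 to 0.0581 in MS_O. It was higher with stress on water and lower with stress on krill oil without overlap, at a low level throughout (interaction -0.66 in 12 libraries and in 10, where its limma adjusted p was 0.0346).

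Of 47 monoamine and acetylcholine genes, 9 were negative and 3 positive, with a median of -0.17, and 8 and 1 in the 10 libraries. Chat, the enzyme that makes acetylcholine, had an FPKM of 0.220, 0.0604 and 0.130 in C_W, 2.10, 2.75 and 1.53 in MS_W, 0.503, 0.790 and 3.26 in C_O, and 0.763, 0.432 and 0.731 in MS_O. Slc5a7, the choline transporter of the same neurons, followed it at 0.104 to 0.307, 1.92 to 2.49, 0.386 to 4.65 and 0.336 to 0.825. In both genes MS_W was above C_W without overlap and C_O72 was the highest of all 12 libraries. The interaction of Chat was -1.91 in 12 libraries and -1.59 in 10 (limma, adjusted p = 0.0266), and that of Slc5a7 was -1.99 and -1.36.

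Of the receptors in this list, Htr1b, a serotonin receptor, had an FPKM of 1.92 to 2.07 in C_W, 4.13 to 5.71 in MS_W, 3.07 to 3.42 in C_O and 1.54 to 3.69 in MS_O. Its C_O72 value of 3.07 was the lowest of its group, and its interaction was -1.35 in 12 libraries and -1.49 in 10. Chrm5, a muscarinic acetylcholine receptor, was at most 0.0305 in C_W, 0.254 to 0.634 in MS_W, 0.0593 to 0.119 in C_O and 0.0624 to 0.147 in MS_O (interaction -0.52).

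Among 23 GABA and glycine receptor genes, 3 were negative and none positive, and the negative genes were Gabrq, Gabre and Glra3. The median of the list was 0.07, with 12 genes above 0 and 11 below, and it was -0.10 in the 10 libraries. Gabrq had an FPKM of 0.0247 to 0.179 in C_W, 2.44 to 2.64 in MS_W, 0.0796 to 1.86 in C_O and 0.208 to 0.574 in MS_O, with an interaction of -1.81 in 12 libraries and -1.39 in 10 (limma, adjusted p = 0.0412). Gabre was at 0.0259 to 0.0402, 0.709 to 1.33, 0.0001 to 0.668 and 0.0289 to 0.102 in the same order of groups, and its interaction was -1.19. Glra3, a glycine receptor subunit, was higher in MS_W than in C_W and lower in MS_O than in C_O without overlap, with an interaction of -0.65.

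Glutamate receptors and their scaffolds held 4 positive genes and 1 negative gene of 37. Their median was 0.70, and 0.15 in the 10 libraries with 5 positive and 2 negative genes. Beside Shank2 and Grm2, Grm8, a presynaptic glutamate receptor, was at 1.81 to 2.19 in C_W, 1.12 to 1.37 in MS_W, 1.08 to 1.60 in C_O and 1.49 to 1.9 in MS_O (interaction 0.64). The negative gene was Grin3a, an NMDA receptor subunit, at 2.26 to 3.00, 3.81 to 4.87, 2.36 to 4.0 and 2.51 to 3.37 (interaction -0.65). Of 42 genes of synaptic vesicle release, 2 were positive and 3 negative, Doc2b, Unc13c and Sv2c being negative and Syt6 positive. Unc13c, a priming factor, was at 1.29 to 1.94 in C_W, 5.10 to 10.6 in MS_W, 1.79 to 7.89 in C_O and 0.981 to 2.33 in MS_O, an interaction of -2.70 in 12 libraries and -2.02 in 10.

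The sodium and calcium channel list held 4 negative genes and 1 positive gene of 32, with a median of 0.34 (0.04 in the 10 libraries). The negative ones were Cacna2d2, a calcium channel subunit (interaction -1.57), and the sodium channel genes Scn9a (-0.37), Scn2b (-0.99) and Scn4b (-1.62). Cacna2d2 was at 4.36 to 5.07 in C_W, 12.2 to 20.2 in MS_W, 4.91 to 11.8 in C_O and 5.85 to 7.32 in MS_O, with its highest values in MS_W95 and C_O72. Potassium channels held 3 positive genes and none negative of 40 (median 0.09). In the 10 libraries 1 was positive and 2 were negative (median -0.02).

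The olfactory bulb and interneuron list had 5 positive genes and no negative gene of 21, and a median of 1.83, the highest of the 37 lists. In the 10 libraries the median was 0.76, no gene was positive and 1 was negative at an unadjusted p under 0.05. Its score was 2.12 to 3.35 in C_W, 1.85 to 3.81 in MS_W, 1.63 to 2.76 in C_O and 3.08 to 4.54 in MS_O. Stress groups overlapped on water and did not on krill oil. Within MS_O the mice differed: Tbx21, a regulator of bulb projection neurons, had an FPKM of 1.49 in MS_O13 and of 8.64 and 8.01 in MS_O46 and MS_O78, and Doc2g was at 9.30, 61.8 and 68.3. Sp8, an interneuron regulator, was at 2.62, 13 and 11.4 in these mice and at 0.115 to 1.85 in C_O. The interactions were 2.60 for Tbx21, 3.34 for Doc2g and 2.59 for Sp8. Dcx, a microtubule protein of young neurons, was at 3.47, 9.89 and 8.70 in the same MS_O mice and at 0.643 to 2.74 in C_O (interaction 1.85).

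Other lists of brain regions had large medians that rested on C_O72 and MS_W95. The cerebellum list had a median of -2.01 in 12 libraries and 0.02 in 10, the hindbrain and spinal cord list -1.32 and -0.06 (23 genes tested in 12 libraries and 7 in 10), the choroid plexus list -1.24 and 0.11, the thalamus and midbrain list -0.84 and -0.15, and the myelin list -0.81 and 0.06. In the cerebellum list all 20 genes had a negative interaction but 1 had an unadjusted p under 0.05. Its score was 5.70 in MS_W95 and 4.22 in C_O72, and the lowest scores of their groups were 1.49 in MS_W and 1.43 in C_O. The cortical list had a median of 0.85 (0.18 in 10 libraries), with a score of 4.16 to 4.25 in C_W, 2.48 to 3.68 in MS_W, 2.25 to 4.40 in C_O and 3.46 to 4.21 in MS_O. Its Slc17a7, the vesicular glutamate transporter of cortical neurons, had an interaction of 2.58 in 12 libraries and 1.14 in 10. The part of these region markers in the interactions of other genes was not tested beyond the fit with hindbrain and cortex scores as covariates.

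The median of the striatal list moved away from 0 when these libraries were left out. None of its 20 genes had an unadjusted p under 0.05 in 12 libraries (median -0.45), and 16 were negative in the 10 libraries (median -1.58). Its score was 1.70 in C_O72 and 1.68 in MS_W95, the lowest of all 12 libraries, while the highest MS_W library was at 4.59 and the highest C_O library at 3.69. C_W lay at 2.33 to 2.84 and MS_O at 3.29 to 4.02.

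**Figure D5:**
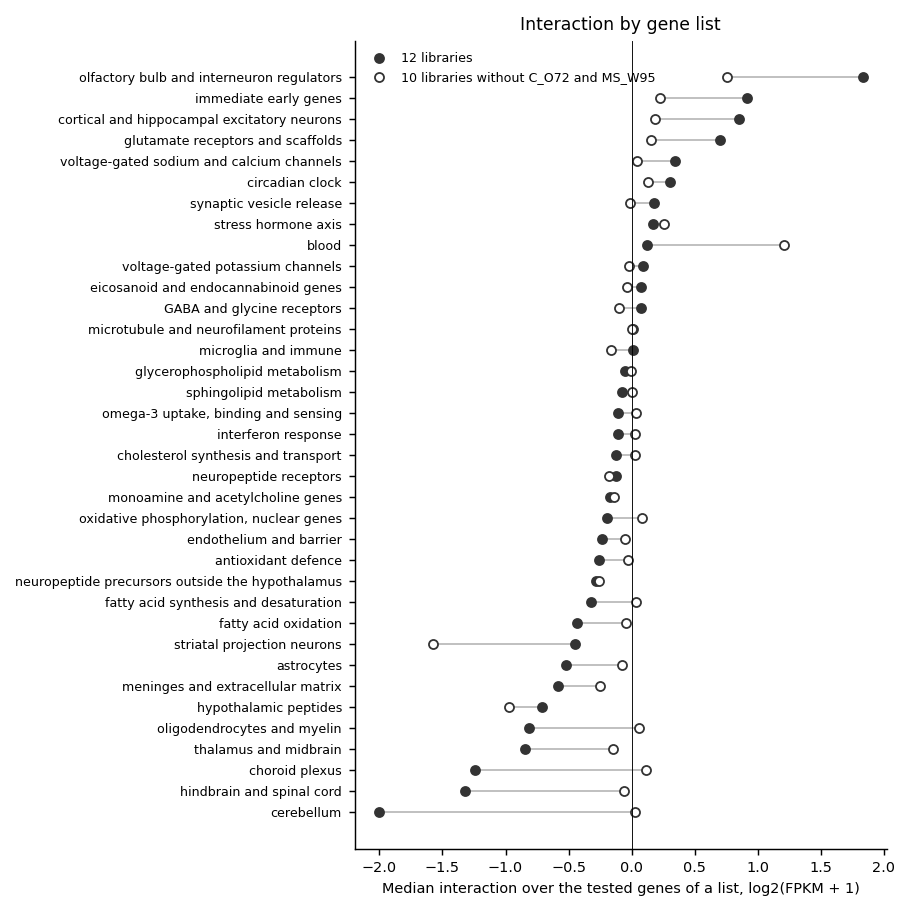
Median interaction over the tested genes of 36 lists, on the scale of log2(FPKM + 1), in 12 libraries (filled symbols) and in the 10 libraries without C_O72 and MS_W95 (open symbols). Lists of brain regions such as the cerebellum move toward 0 in the 10 libraries, whereas the striatal list (-0.45 to -1.58) and the hypothalamic list (-0.71 to -0.97) move away from it. The 7 lists of lipid metabolism lie between -0.43 and 0.07 in 12 libraries.

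Astrocyte genes were negative in 4 of 20 cases and positive in none (median -0.52, and -0.08 in 10 libraries). Agt, which encodes angiotensinogen, had an FPKM of 20.5, 20.0 and 63.8 in MS_W and of 2.20, 6.58 and 75.1 in C_O, against 2.03 to 3.30 in C_W and 3.25 to 8.24 in MS_O (interaction -4.13 in 12 libraries, -2.27 in 10). Of 21 genes of the meninges and matrix, 4 were negative and none positive (median -0.58, and -0.25 in 10 libraries). Col1a1, a fibrillar collagen, was at 0.607 to 1.22 in C_W, 2.21 to 2.55 in MS_W, 1.49 to 2.20 in C_O and 1.00 to 1.94 in MS_O. Its interaction was -1.02 in 12 libraries and -0.98 in 10. Microglial and myelin genes held none at an unadjusted p under 0.05, of 22 each. Immediate early genes had a median of 0.91 with 1 positive gene of 20, and 0.23 in the 10 libraries. In the stress hormone axis 1 of 15 genes was positive, the glucocorticoid-induced factor Klf9. It was at 39.4 to 44.3 in C_W, 7.49 to 25.3 in MS_W, 21.4 to 44.5 in C_O and 30.2 to 39.7 in MS_O, an interaction of 1.82 in 12 libraries and 1.26 in 10.

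Because the oil is a lipid, 7 lists of lipid metabolism were followed. Over 225 entries in these lists, 4 were positive (1.78%) and 9 negative (4%) at an unadjusted p under 0.05, beside 3.6% and 3.63% of all tested genes. None of 44 sphingolipid genes reached it, and the median was -0.08 (0.00 in 10 libraries). Glycerophospholipid genes held 3 negative of 54, Chat among them (median -0.05), fatty acid synthesis and desaturation 2 negative of 27 (median -0.32), fatty acid oxidation 1 positive of 27 (median -0.43) and cholesterol synthesis and transport 1 negative of 26 (median -0.12). The omega-3 uptake, binding and sensing list held 2 positive and 2 negative of 23 (median -0.10), and the eicosanoid and endocannabinoid list 1 and 1 of 24 (median 0.07).

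Scd2, a desaturase that makes monounsaturated fatty acids, had the largest interaction among the named lipid genes, -3.70 (SE 1.02, limma, adjusted p = 0.631), and -4.07 in the 10 libraries. Its FPKM was 269, 42.6 and 47.4 in C_W, 296, 298 and 69.1 in MS_W, 244, 230 and 468 in C_O, and 42.6, 59.4 and 49.5 in MS_O. The libraries formed a low level, with 2 C_W mice, MS_W95 and all of MS_O, and a high level, with C_W1, the other MS_W mice and all of C_O, separated by 1.72 on the log2 scale.

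Of the phospholipid genes, Chpt1 and Cept1, which complete the synthesis of phosphatidylcholine, were higher in MS_W than in C_W without overlap (1.72 to 2.23 and 2.45 to 5.16 for Chpt1, 8.25 to 8.62 and 8.99 to 12.7 for Cept1). Their interactions were -1.0 and -0.49 in 12 libraries and -0.42 and -0.27 in 10. Dgkk, a diacylglycerol kinase (ENSMUSG00000062393, chromosome X, 6779306 to 6948363), is outside the 7 lipid lists counted above. It was at 0.0191 to 0.0579 in C_W, 1.53 to 2.02 in MS_W, 0.0575 to 1.17 in C_O and 0.0425 to 0.134 in MS_O. Its highest C_O mouse was C_O72. The interaction was -1.78 in 12 libraries (SE 0.30, limma, adjusted p = 0.268) and -1.40 in 10, where it passed (adjusted p = 0.00616). Pla2g4e, a phospholipase also outside these lists, had a positive interaction of 0.79, with 1.69 to 1.99 in C_W and 0.806 to 1.22 in MS_W.

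Among genes of omega-3 uptake and sensing, Fabp3, a fatty acid binding protein, was at 106 to 108 in C_W, 70.4 to 76.3 in MS_W, 74.1 to 103 in C_O and 75.3 to 102 in MS_O. It was lower with stress on water without overlap, and the krill oil groups overlapped (interaction 0.46 in 12 libraries, 0.33 in 10). Cd36, a fatty acid translocase, was under 0.5 in every library, and its interaction was -0.47. Fdft1, which encodes squalene synthase, was at 22.1 to 25.4 in MS_W, 15.3 to 24.5 in C_W, 17.7 to 19.2 in C_O and 12.3 to 15.8 in MS_O. Its MS_O mice were below C_O without overlap (interaction -0.75 in 12 libraries, -0.78 in 10).

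Of 4 genes that the study discusses, 3 had a positive interaction at an unadjusted p under 0.05. The study took all 4 from its comparison of MS_W with MS_O in these samples, so they are no independent evidence. The difference MS_O minus MS_W was 1.42 for B3galt1, 1.13 for Plekha2, 0.83 for Gcnt1 and -0.96 for Sgpp2. B3galt1, a galactosyltransferase of glycolipids and glycoproteins (ENSMUSG00000034780, chromosome 2, 67565871 to 68122689), had an FPKM of 4.33, 3.95 and 4.15 in MS_O and of 0.852, 0.914 and 0.728 in C_O. In MS_W it was 0.863, 1.13 and 0.790, but C_W held both levels, with 0.860 in C_W1 and 3.74 and 4.07 in the others. No library lay between 1.13 and 3.74. The interaction was 2.37 (SE 0.43, limma, adjusted p = 0.345) and 2.28 in the 10 libraries.

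Gcnt1, which branches O-linked glycans, had an FPKM of 0.903, 4.74 and 4.53 in MS_O and of 0.227 to 0.797 in C_O, while C_W (0.378 to 1.5) and MS_W (0.971 to 1.74) overlapped. Plekha2, which binds phosphoinositides, was at 6.42, 18.6 and 15.7 in MS_O and 2.11 to 4.69 in C_O. Both genes had the lowest MS_O value in MS_O13, as the olfactory bulb genes did, and their interactions were 1.37 and 1.79 in 12 libraries and 1.19 and 1.08 in 10. Sgpp2, a sphingosine 1-phosphate phosphatase, was at 25.1 in MS_W95 and 27.1 in C_O72 and at 3.26 to 9.35 in the other 10 libraries. Its interaction was -1.61 (SE 0.86, limma, adjusted p = 0.665) in 12 libraries and -0.30 in 10.

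The 20 GO terms and KEGG pathways followed held more negative than positive genes where they concern peptides and receptors. Most of them were chosen by the study from gene expression in these samples. Sphingolipid and glycerophospholipid metabolism were named there from lipid measurements of the brain, not from RNA. The KEGG pathway of neuroactive ligand-receptor interaction had 26 negative and 10 positive genes of 236 (median -0.03), beside 3.63% and 3.6% of all tested genes. It had 42 and 9 in the 10 libraries, where 1580 of 21171 genes in either direction had an unadjusted p under 0.05. The neuropeptide signaling pathway had 11 and 4 of 77 (median -0.19), with Ecel1, an endopeptidase, at 0.369 to 0.849 in C_W, 4.77 to 15.8 in MS_W, 1.04 to 9.34 in C_O and 1.95 to 2.64 in MS_O (interaction -3.26). Feeding behavior had 6 negative and none positive of 29 (median -0.59), and axon had 25 and 9 of 430 (median -0.03). For synapse (31 and 30 of 735) and multicellular organism development (31 and 35 of 817) the directions were nearly even. These were 8.30% and 8.08% of their genes, beside 7.23% of all tested genes. The KEGG pathway of sphingolipid metabolism had 0 of 42, and that of glycerophospholipid metabolism had 5 negative and 1 positive of 77. The PPAR signaling pathway had 3 negative and 1 positive of 53.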

How the data were processed

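The authors trimmed paired-end reads of poly(A) RNA with cutadapt 1.9, aligned them to mm10 (GRCm38) with HISAT2 2.0.4, assembled and merged transcripts with StringTie 1.3.4d and estimated FPKM with Ballgown. They also deposited estimated counts, not scaled between libraries. The handling of reads with several alignments is not given in the sources used here. GRCm38 coordinates are those of the deposited table.

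In R 4.3.3, limma 3.58.1 (lmFit and trended eBayes) fitted the interaction to log2(FPKM + 1) of 12 libraries in 1 model of 4 groups, with p adjusted by the Benjamini-Hochberg method over 21393 genes. Named genes were those with the smallest p and an absolute interaction above 1 and a mean FPKM of at least 1 (10 in each direction, 5 in each for the 10 libraries, without provisional symbols), up to 4 of each list or term at an unadjusted p under 0.05, and 4 discussed by the study. Of 122 such genes, 70 are described, chosen after their values were seen; the others are not reported here. Members and lists were chosen with earlier results of these data known. The alternatives included the quasi-likelihood test of edgeR 4.0.16 and DESeq2 1.42.0, both on the deposited estimated counts, which are whole numbers. The limma, edgeR and DESeq2 fits were also run on simulated data. These data had no libraries like C_O72 and MS_W95, so they cannot show how the fits treat such libraries. Each library came from a separate mouse. Figures were drawn with matplotlib 3.10.9.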

Additional observations from a re-analysis of the deposited data

Results flagged for a closer look

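For 13 of the 122 genes named by the rule, 8 of them described here, every stressed mouse was on one side of the unstressed mice on water and on the other side on krill oil. The interactions of these 8 were -1.20 for Gpr165, -1.01 for Pthlh, -0.66 for Galr1 and -0.65 for Glra3, higher with stress on water and lower on krill oil, and 1.77 for Shank2, 1.38 for Pparg, 2.44 for Grm2 and 2.33 for Klhl40, in the reverse order. The limma test of the difference between diets gave each of them an unadjusted p under 0.05 in 12 libraries, and none passed after adjustment. All 8 were named for a small p of this interaction in 12 or 10 libraries, and that choice favours opposite groups. Such opposite groups were found for 128 of 21393 genes (0.598%). Klhl40, Grm2 and Pparg had their lowest values of MS_W, C_O or both in MS_W95 or C_O72, and their interactions in the 10 libraries were 1.21, 1.65 and 1.1.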

How the results depend on the processing

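The 70 genes described kept the sign of their interaction in all 1809 pairs of a gene and 1 of 26 alternatives, and 38 passed the adjusted threshold in at least 1. Nearly all were chosen by a small p of the interaction in these same libraries. The alternatives fit these libraries again, so both counts were favoured in advance. The count of genes past the adjusted threshold was 0 in 12 libraries, also with other pseudocounts, filters, normalizations, eBayes settings, region covariates and edgeR, where 976 to 2356 genes had an unadjusted p under 0.05. It was 32 with array weights, 31 in the 10 libraries and 159 with DESeq2, and 0 to 20 without 1 library: 20 without C_O15, 10 without C_O72, 8 without MS_W95, 5 without MS_O13, 3 without C_W1, 2 without C_W64 and 1 without C_W70, MS_W31 or MS_O46. Genes past the unadjusted p and size numbered 977 (489 positive, 488 negative) with a pseudocount of 0.1, 970 (472 and 498) with 0.01, 1202 (411 and 791) with edgeR, 1886 (736 and 1150) with unfiltered edgeR and 1477 (539 and 938) with DESeq2. Positive genes were 82 in the 10 libraries and 115 with region covariates. Without 1 library the total was 213 (without C_O72) to 676 (without C_O15), with 102 to 358 positive and 111 to 318 negative. Genes with an unadjusted p under 0.05 were 2355 with array weights, 976 at a mean FPKM of at least 1, 2356 with unfiltered edgeR and, without 1 library, 1000 (without C_W64) to 2191 (without C_O15), and opposite signs on the diets numbered 856, 2151 and 889 to 2039 in the last 3. Lists with a median above 0 numbered 15 of 37, and 11 to 15 without 1 library. Of 13 lists with an absolute median above 0.5, 3 had one in the 10 libraries. The causes were not tested. No paired analysis was possible because no mouse number occurs in more than 1 group. Without its 7 members known from earlier results, an alternative chosen after seeing the data, the median of the hypothalamic list was -0.19 and not -0.71.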

Other observations

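A few lists not described above held 1 or 2 genes at an unadjusted p under 0.05, too few to give the list a direction. These were 3.23% of the antioxidant, 9.52% of the circadian clock and 1.43% of the oxidative phosphorylation genes, beside 7.23% of all tested genes. Of 31 antioxidant genes 1 was negative, Gpx3, a secreted glutathione peroxidase, with an FPKM of 16.4 to 19.6 in MS_W, 3.66 to 5.03 in C_W, 2.83 to 23.1 in C_O and 4.57 to 6.75 in MS_O. Its highest library was C_O72, and its interaction was -2.33 in 12 libraries and -1.57 in 10. Of 21 circadian clock genes 2 were positive (median 0.31, and 0.13 in 10 libraries). Nr1d1, the repressor REV-ERB alpha, was at 44.3 to 47.6 in C_W, 31.5 to 38.6 in MS_W, 22.9 to 44.2 in C_O and 39.5 to 50.6 in MS_O, and Csnk1e, a kinase of clock proteins, at 16.7 to 17.4, 11.4 to 14.7, 11.7 to 16.8 and 15.3 to 18.2. Both were lower with stress on water without overlap. The nuclear genes of oxidative phosphorylation had 1 negative gene and no positive gene of 70, with 65 of 70 below 0 and a median of -0.20, which was 0.08 in the 10 libraries.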
